A study of Homo sapiens with 6 samples.

Results

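The ribosome footprints of HEK293T cells given a PRMT4 inhibitor were set against those of cells given the vehicle DMSO, gene by gene. The comparison rests on 2 of the 6 libraries in the series, 1 a side, picked by their labels with earlier results of these data known. HEK293T cells derive from human embryonic kidney and stably express the large T antigen of SV40. The series holds an input and a footprint library for each of 3 treatments, DMSO, PRMT1 inhibitor and PRMT4 inhibitor. The labels give no compound, dose or duration for either inhibitor, and no genotype beyond the line. According to the protocol, RNase I digested the lysates and monosomes were pooled from sucrose gradients before small RNA libraries were made. The sources used here do not say how input RNA was made.

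PRMT4, also called CARM1, places asymmetric dimethyl marks on arginines of histone H3, transcriptional coactivators, splicing factors and other RNA-binding proteins. PRMT1 is the main enzyme making the same kind of mark, often within glycine- and arginine-rich stretches. A ribosome shields a short piece of the message it is reading from nuclease, so the number of such footprints on a message follows both how much of the message there is and how densely ribosomes load it. A footprint ratio alone does not separate these, and fewer copies of a message cannot be told apart here from fewer ribosomes on each copy.

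Levels are in TPM, a length-scaled share of each library's total that keeps no sequencing depth, so the depth behind each value is unknown. The ratio used throughout is log2((TPM + 1) / (TPM + 1)) of the PRMT4 inhibitor label over DMSO, minus its median over protein-coding genes, which was -0.01. On this scale 0 is the typical protein-coding gene, and low genes have their differences understated. Genes with a mean of at least 5 TPM over the 6 libraries were compared, 8117 protein-coding and 923 others. With 1 library a side no difference has a replicate check, no test was possible, and the values are those of 2 particular libraries.

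The labels of the inhibitor libraries need a caution before any result. Across the 8117 genes, the footprint ratio of the PRMT4 inhibitor label followed the input ratio of the PRMT1 inhibitor label (Pearson r = 0.46, Spearman rho = 0.44) more closely than the input ratio of its own label (r = 0.20, rho = 0.18). The footprint ratio of the PRMT1 inhibitor label likewise followed the input of the PRMT4 inhibitor label (r = 0.56) more closely than its own (r = 0.36). These are descriptions across genes, which are not independent replicates. After adjustment of both ratios for GC content and length the first pair stood at 0.45 and 0.28. Whether labels were exchanged was not tested, and the libraries are called here by their labels.

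Some measures of make-up were close between the pair of footprint libraries and others were not. Genes above 0 numbered 20823 with DMSO and 21161 with the PRMT4 inhibitor label, and protein-coding genes took 74.3% and 70.6% of TPM. Small nucleolar RNAs took 0.838% and 1.07%, against 3.9% in the footprints labelled PRMT1 inhibitor. The most abundant gene, ENSG00000260035, stood at 27477 and 49997 TPM, and mitochondrially encoded messages took 0.0105% and 0.00594%. The 16 markers of the line, such as VIM, STMN1 and KRT18, summed to 747 and 741 TPM. The 10 blood markers summed to 19.4 and 20.8 TPM, of which the globin HBA1 held most. The 10 hepatocyte markers summed to 1.09 TPM with DMSO and 1.1 TPM with the PRMT4 inhibitor label, and the 9 fibroblast markers to 3.93 and 2.86 TPM.

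Few protein-coding messages differed by much. The lower and upper quartiles of the ratio lay at -0.15 and 0.15. With the PRMT4 inhibitor label 7 of 8117 genes (0.0862%) stood 2-fold or more above DMSO, and 9 (0.111%) stood 2-fold or more below. At 1.5-fold there were 118 higher (1.45%) and 103 lower (1.27%), and 50% lay above 0. Over all 9040 genes 290 (3.21%) were higher and 155 (1.71%) lower, with 48.6% below 0. Of the protein-coding genes past 1.5-fold 53.4% were higher, a split that became 72.4% when TPM was rescaled to nuclear protein-coding genes without centring. Among the 1026 messages with a mean of at least 100 TPM over the pair of libraries, 19 were at least 1.5-fold lower and 1 was higher, with a median of -0.05.

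Most of the 2-fold differences lay in genes that share sequence with another gene. A footprint is a short read, so each coding sequence was cut into overlapping words of 28 bases and the share of words also present in another gene was counted. Of the 16 genes past 2-fold, 14 had a value, and 11 of these (78.6%) had more than 50% of their words in another gene, against 847 of 8053 genes (10.5%) overall. The genes past 2-fold with under 1% of shared words were HMOX1, LGALS1 and POLG. Among genes with over 50% shared words 5.19% were past 1.5-fold, against 2.23% of the genes with none. The sources used here do not say how reads were divided between copies, so single-copy values within such families are uncertain. Shared words were counted in GENCODE, whose genome build differs from the authors', so a copy counted there may be absent from their genes. CBS is among the 11, and no copy of it was found among their listed genes.

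The mitochondrial creatine kinase pair shows how little separates such copies. CKMT1A and CKMT1B have coding sequences of 1254 bases that differ at 2 positions, 99.8% identical. The window of coding bases 1027 to 1086 holds both, in capitals (GENCODE 29 transcripts, 5′ to 3′).
CKMT1A: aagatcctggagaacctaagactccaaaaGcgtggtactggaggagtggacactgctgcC
CKMT1B: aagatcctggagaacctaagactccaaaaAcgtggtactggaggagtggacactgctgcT
CKMT1B footprints stood at 90.6 TPM with DMSO and 34.8 with the PRMT4 inhibitor label, a ratio of -1.34. CKMT1A went the other way, from 5.29 to 11.5 TPM, a ratio of 1. Summed over both copies the level was 95.9 and 46.3 TPM, a ratio of -1.02, so the lower level of the pair did not depend on how reads were divided between them.

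Other copies gave different answers when summed. HSPA1A and HSPA1B, which encode the stress-induced HSP70 and differ at 4 coding positions, summed to 926 TPM with DMSO and 403 with the PRMT4 inhibitor label, a ratio of -1.18 that matched HSPA1B alone. SMN1, needed for spliceosomal snRNP assembly, stood at 3.86 and 1 TPM, a ratio of -1.27, whereas SMN1 and SMN2 together stood at 166 and 172 TPM, a ratio of 0.06. CCZ1B, part of an exchange factor for the endosomal GTPase Rab7, had a ratio of 1.11, but with its copy CCZ1 the sum was 22.5 and 27.9 TPM, a ratio of 0.31. The HSP70 and creatine kinase sums were thus about as low as their lower copies, while SMN1 and CCZ1B are the minor copies of sums that differed less. The major copies SMN2 and CCZ1 had ratios of 0.09 and 0.04. For ARPC4-TTLL3, a read-through gene, the ratio was -1.45, and with ARPC4 it was -0.33.

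**Figure D1:**
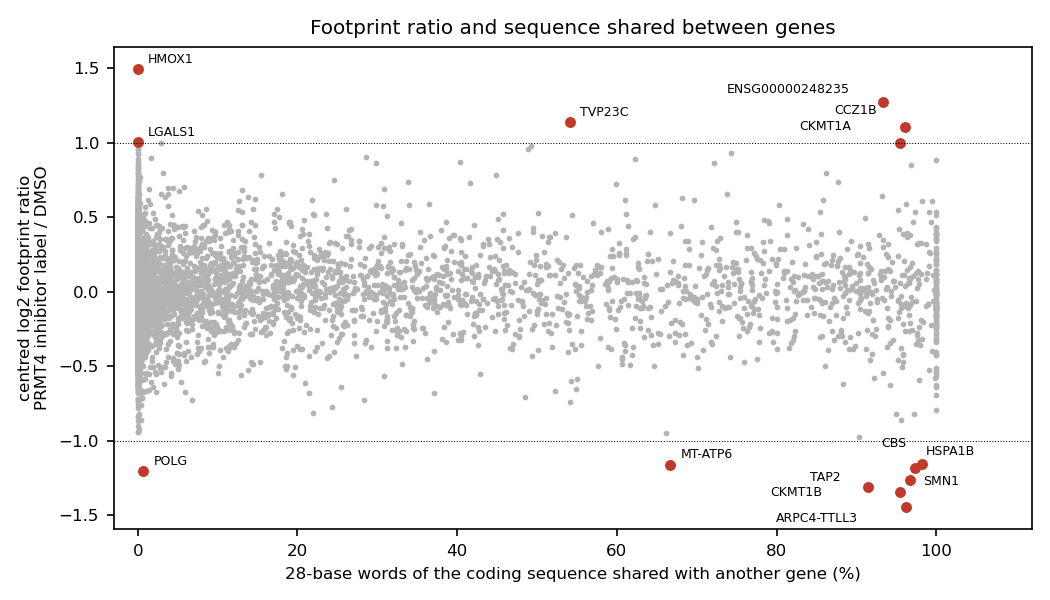
Each point is a protein-coding gene; the horizontal axis is the percentage of 28-base words of its coding sequence found in another gene, the vertical axis the centred log2 footprint ratio, and red points are genes past 2-fold (dotted lines). Of the 14 red genes, 11 lie to the right of 50%, and HMOX1, LGALS1 and POLG lie at the left edge.

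Among genes with a mean of at least 20 TPM over the pair of footprint libraries, 3795 with a symbol, the highest ratio was that of HMOX1, heme oxygenase, which splits heme and releases its iron. Its footprints stood at 33.0 TPM with DMSO and 93.9 with the PRMT4 inhibitor label, a ratio of 1.49. They stood at 642 TPM with the PRMT1 inhibitor label. In the inputs HMOX1 stood at 7.53 TPM with DMSO, 21.6 with the PRMT1 inhibitor label and 157 with the PRMT4 inhibitor label. The higher footprint level and the higher input level thus carry opposite inhibitor labels. FTL, the light chain of the iron store ferritin, stood at 102 TPM with DMSO and 188 with the PRMT4 inhibitor label, a ratio of 0.89, with input ratios of 0.89 and 0.74 for the PRMT1 and PRMT4 inhibitor labels.

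The other high genes had no single role in common. LGALS1, a galactoside-binding lectin, stood at 22.1 and 44.8 TPM (ratio 1.01), and CKLF, a chemokine-like protein, at 13.6 and 27.4 TPM (0.97). CRABP2, which carries retinoic acid to its receptor, stood at 16.3 and 28.3 TPM (0.77). GABARAPL1, an autophagosome protein of the ATG8 family, stood at 33.8 and 53.3 TPM (0.66). The selenoprotein GPX3 had a ratio of 0.65, and OAZ2, an antizyme that restrains polyamine synthesis and is read through a programmed frameshift, 0.65. DYNLT2B (0.86), MYL6B (0.70), TMEM14C (0.64) and CDKN3 (0.62) also belonged to the 15 highest, as did ZNG1A (0.73), whose family of near-identical copies had a summed ratio of 0.28. SYF2, the first gene outside, stood at 0.62.

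The lowest genes included several abundant metabolic messages. PKM, pyruvate kinase, stood at 1165 TPM with DMSO and 655 with the PRMT4 inhibitor label, a ratio of -0.82. LDHA, lactate dehydrogenase A, stood at 1117 and 676 TPM, a ratio of -0.71. CKB, the brain-type cytosolic creatine kinase, stood at 974 and 603 TPM, a ratio of -0.68. All 3 are enzymes of energy supply, and each was also below 0 in both input comparisons. PRPS2, which makes the ribose phosphate donor for nucleotides, stood at 148 and 88.8 TPM (-0.72), and YARS1, the tyrosyl-tRNA synthetase, at 180 and 99.4 TPM (-0.83).

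Further genes among the 15 lowest had other roles. DDIT4, an inhibitor of mTORC1, stood at 55.4 and 29.6 TPM (-0.87), and TSC22D3, a glucocorticoid-induced leucine zipper protein, at 97.7 and 56.8 TPM (-0.76). Both belong to a list of glucocorticoid and FOXO responsive genes whose 9 measured members had a median of -0.01, with 3 above 0. YBX3, a cold-shock domain protein that binds messages, stood at 424 and 245 TPM, a footprint ratio of -0.77, while its input ratios were -0.11 and -0.02 for the PRMT1 and PRMT4 inhibitor labels. The methyltransferase-like COMTD1 (-0.90), the protease CAPN1 (-0.73), the actin bundler FSCN1 (-0.72), TIMM10B (-0.70) and NOC2L (-0.68) complete the set with CKMT1B and HSPA1B. DUT, just outside, had a ratio of -0.68. TIMM10B has 100% of its words in another gene, so its value is uncertain. Over 50% shared words were found in 3 of the 15 lowest and 3 of the 15 highest. The latter were ZNG1A (87.7%), DYNLT2B (72.1%) and FTL (62.3%), with CKLF at 49.3%. LDHA, among the lowest, had 48.5%.

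The inputs, which share no library with the footprints, were read beside these genes. Of the 15 highest, 15 lay above 0 in the input of the PRMT1 inhibitor label and 13 in that of the PRMT4 inhibitor label. Of the 15 lowest, 14 and 12 lay below 0. Each input ratio was centred on its median protein-coding gene, so over all such genes about as many lie above 0 as below. The input medians were 0.37 and 0.29 for the highest and -0.61 and -0.16 for the lowest. The genes were picked for extreme footprint ratios, so smaller values in the inputs would arise from that choice alone. Nothing about message level against ribosome loading is read from them.

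**Figure D2:**
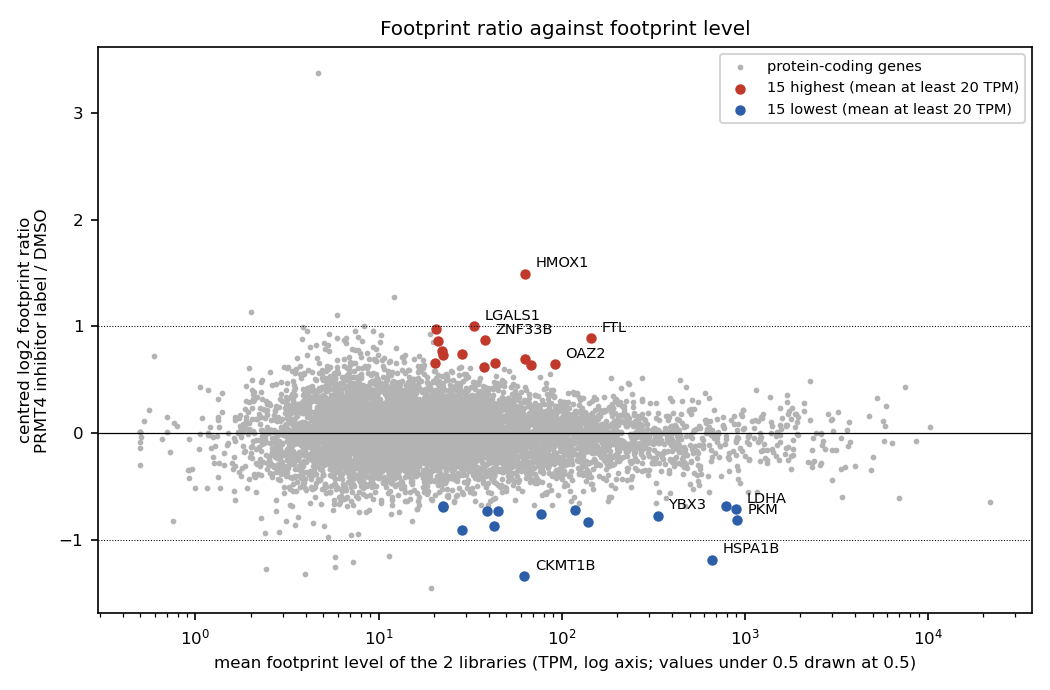
The centred log2 footprint ratio of each protein-coding gene against its mean footprint level in TPM (log axis), with the 15 highest and 15 lowest genes coloured and 2-fold marked by dotted lines. HMOX1 at 1.49 stands above the other coloured genes, and PKM, LDHA and HSPA1B lie low among the abundant messages.

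**Figure D3:**
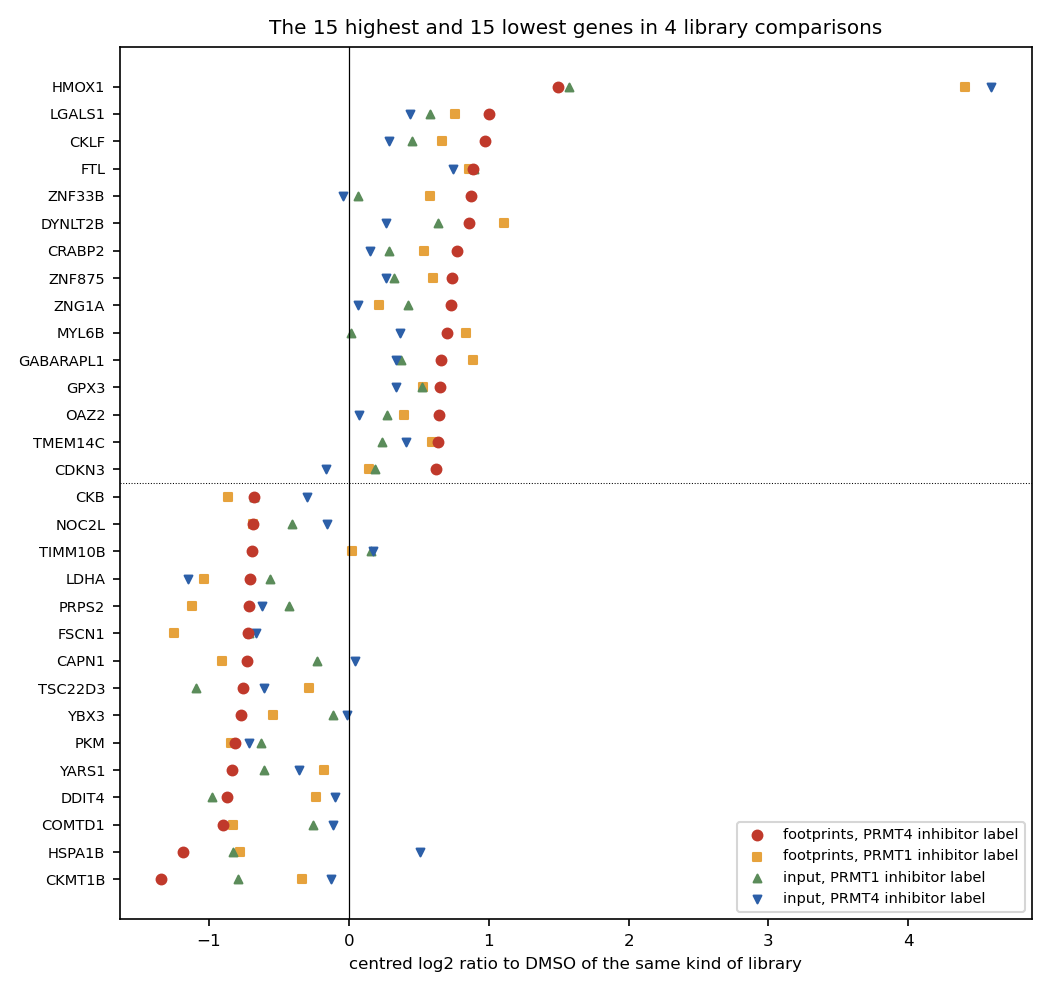
Centred log2 ratios to DMSO (horizontal axis) of the 15 highest and 15 lowest genes in footprints of the PRMT4 inhibitor label (circles), footprints of the PRMT1 inhibitor label (squares) and inputs of the PRMT1 (upward triangles) and PRMT4 (downward triangles) inhibitor labels, 1 library each. HMOX1 stands at 1.49 in the circles and at 4.41 in the squares, which share the DMSO footprint library.

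Glycolytic genes and genes of serine, glycine and one-carbon metabolism stood low as groups. Of 18 glycolytic genes measured, 17 lay below 0 and 1 above, with a median of -0.38, and 2 (PKM and LDHA) were at least 1.5-fold lower. SLC2A1, the glucose transporter, was the one above 0, at 10.5 and 11.2 TPM (0.10), and GAPDH stood at 1397 and 1244 TPM (-0.15). The medians of the glycolytic list in the inputs were -0.37 for the PRMT1 inhibitor label and -0.17 for the PRMT4 inhibitor label. In the footprints of the PRMT1 inhibitor label, which share the DMSO footprint library, the list median was -0.55. Enzymes of serine, glycine and one-carbon metabolism, which supply methyl groups and nucleotide carbons, had 11 of 12 below 0 and a median of -0.33. PHGDH, the first enzyme of serine synthesis, stood at 220 and 144 TPM (-0.60), and MTHFD1 at 97.7 and 65.3 TPM (-0.56).

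Nucleotide synthesis genes had 22 of 27 below 0, with a median of -0.19 (-0.09 over the 24 with a mean of at least 20 TPM) and 2 at least 1.5-fold lower. These were PRPS2 and RRM1, the large subunit of ribonucleotide reductase, at 141 and 91.9 TPM (-0.60). UMPS, which completes uridine monophosphate, stood at 79.0 and 95.8 TPM (0.29). Citric acid cycle enzymes lay nearer the background, with 15 of 22 below 0 and a median of -0.15, none past 1.5-fold. Among 5 creatine genes measured the median was -0.33, and over the 3 with a mean of at least 20 TPM it was -0.66. Sulfur amino acid genes had 9 of 12 below 0 (median -0.21), but over the 9 members with under 10% shared words the median was -0.08. Cholesterol synthesis genes had 16 of 20 below 0 (median -0.13, and -0.27 over the 5 with a mean of at least 20 TPM).

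Genes of the amino acid response, driven by the transcription factor ATF4, were mostly low. Of 24 measured, 19 lay below 0 and 5 above, with a median of -0.24. CBS, cystathionine beta-synthase, stood at 16.2 and 6.67 TPM (-1.15). In the GENCODE coding sequences 98.3% of its words were in another gene, but no copy of CBS was found among the authors' listed genes. Whether its reads were divided with a copy was not tested. DDIT3, which encodes the stress factor CHOP, stood at 5.24 and 8.80 TPM (0.67), and PPP1R15A, which restores initiation after stress, at 3.68 and 4.35 TPM (0.21). The 3 members at least 1.5-fold lower were CBS, PHGDH and DDIT4. In the inputs the list median was -0.21 for the PRMT1 inhibitor label and 0.34 for the PRMT4 inhibitor label.

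The enzymes that charge tRNAs showed the same side of 0. Of 23 cytosolic aminoacyl-tRNA synthetases and their scaffold proteins, 18 lay below 0, with a median of -0.19. YARS1 and VARS1, the valyl enzyme at 32.0 and 19.9 TPM (-0.65), were at least 1.5-fold lower, and the scaffold AIMP1 was highest, at 11.8 and 15.7 TPM (0.41). The 14 mitochondrial synthetases had 11 below 0 and a median of -0.17. Amino acid transporters had 8 of 13 below 0 (median -0.19, and -0.05 over 19 with no filter on level), with SLC38A2 at 54.5 and 42.9 TPM (-0.32) and SLC7A6 at 5.43 and 6.62 TPM (0.26).

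Messages made inside mitochondria stood low as a group. They encode core subunits of the respiratory chain and are read by mitochondrial, not cytosolic, ribosomes. All 10 measured lay below 0, with a median of -0.60, and 5 were at least 1.5-fold lower. At these low levels the size rests on the pseudocount, and with a pseudocount of 5 the median was -0.32, against -0.35 for the glycolytic list. MT-CO3 stood at 8.56 and 2.97 TPM (-1.25), MT-ATP6 at 8.37 and 3.15 TPM (-1.16), MT-ND3 at 10.9 and 7.85 TPM (-0.42) and MT-CO1 at 3.59 and 2.55 TPM (-0.36). For 3 of the 10, MT-ATP6 among them (66.7%), over 50% of the coding words were in another gene. MT-CO3 had no such value. What this sharing does to the levels was not tested. Footprints of these messages made up 0.0105% of TPM with DMSO and 0.00594% with the PRMT4 inhibitor label, so their levels were low in both libraries. Their medians in the inputs were -0.42 and -0.50 for the PRMT1 and PRMT4 inhibitor labels. Nuclear-encoded subunits stood near 0, with medians of -0.02 for complex I (37 genes), -0.03 for complex IV (11) and 0.00 for ATP synthase (18), and mitochondrial ribosomal proteins stood at -0.06 (79).

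Histone messages held some of the highest footprint levels. H1-4, a linker histone that binds DNA between nucleosomes, stood at 26627 TPM with DMSO and 16925 with the PRMT4 inhibitor label, a ratio of -0.64. H1-2 stood at 8413 and 5472 TPM (-0.61), and H1-3 at 262 and 215 TPM (-0.27). All 3 linker histones measured were thus lower, 2 of them past 1.5-fold. In the footprints of the PRMT1 inhibitor label, which share the DMSO footprint library, their median was -0.51. Core histones, whose messages likewise lack a poly(A) tail, had 32 of 42 below 0 and a median of -0.12. H2AC20 stood at 4100 and 2682 TPM (-0.60) and H4C3 at 829 and 917 TPM (0.16). Many core histone genes are near-identical copies, so single members are uncertain.

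Zinc finger genes formed the largest group on the high side. These genes encode transcription factors, many of them repressors of mobile elements, in which C2H2 fingers are strung together by a short conserved linker. Of 216 numbered ZNF genes measured, 163 lay above 0, with a median of 0.17 (0.08 over the 38 with a mean of at least 20 TPM). At least 1.5-fold higher were 18, and 0 were as far lower, against 1.45% and 1.27% of all protein-coding genes. Among the 3456 protein-coding genes with a mean footprint level of 5 to 20 TPM, 78 were as far higher and 46 lower. At such shares few of 216 would be lower, so the 0 is not read as a result. The coding sequences were searched, in frame and on the coding strand, for the linker motif ACNGGNGANAANCC, N being any base. The motif was in 199 of 8053 coding sequences (2.47%, and 2.72% of the 19344 coding sequences in GENCODE 29). A stretch from 1 linker to the next is printed for 3 of the highest genes, to show the repeat that the count rests on, with linkers in capitals (GENCODE 29 transcripts, 5′ to 3′).
ZNF611: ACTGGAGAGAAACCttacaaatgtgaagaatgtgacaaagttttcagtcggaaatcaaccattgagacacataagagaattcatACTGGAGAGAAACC
ZNF780A: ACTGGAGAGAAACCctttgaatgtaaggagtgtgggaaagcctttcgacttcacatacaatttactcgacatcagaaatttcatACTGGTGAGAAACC
ZNF550: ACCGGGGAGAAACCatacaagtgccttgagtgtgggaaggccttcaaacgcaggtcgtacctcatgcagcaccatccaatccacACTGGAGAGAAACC
A match is a description of the sequence and not of a function of these genes.

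The ratio was higher in genes with more linkers. The median was 0.00 for the 7854 genes with no match, 0.05 for 41 genes with 1 match, 0.16 for 66 genes with 2 to 4, 0.24 for 67 genes with 5 to 9 and 0.27 for 25 genes with 10 or more. The share of genes above 0 was 49.2% without a match and 88.1% and 88.0% in the last pair of classes. Of the 118 genes at least 1.5-fold higher, 16 (13.6%) held a linker, and of the 103 lower, 0 did, against 2.45% of all 8117. At that share few of 103 would hold one, so the 0 is not read as a result. Numbered ZNF genes with a linker (151) had a median of 0.21 and those without (65) of 0.04. The zinc finger list was chosen with this pattern already known, so its direction is a description.

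Most genes with 5 or more linkers were low in level, 74 of 92 with a mean footprint level under 20 TPM. ZNF664, with 5 linkers, was far higher in level, at 188 and 201 TPM (0.11). Over all numbered ZNF genes the highest ratio was that of ZNF688 (0.998), which had no match. The lowest was that of ZNF747 (-0.55), with 1 match. ZNF611 stood at 6.05 TPM with DMSO and 12.6 with the PRMT4 inhibitor label, a ratio of 0.96. ZNF780A stood at 5.12 and 10.4 TPM (0.90), and ZNF550 at 4.36 and 8.88 TPM (0.90). ZNF33B, at 26.7 and 49.3 TPM (0.87), and ZNF875, at 21.3 and 35.8 TPM (0.74), were the finger genes among the 15 highest overall. ZNF33B had input ratios of 0.06 and -0.05 for the PRMT1 and PRMT4 inhibitor labels. The lowest of the genes with 5 or more linkers were ZNF286B (-0.36) and ZNF286A (-0.24).

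Several properties went along with the linkers, and the ratio was read within each. Of the 92 genes with 5 or more linkers, 81 lay above 0, with a median of 0.25. The 42 with under 10% of shared words had a median of 0.20 and the other 50 of 0.31. The 47 on chromosome 19 had a median of 0.34, with 44 above 0, and the 45 elsewhere of 0.18, with 37 above 0. Among genes with under 45% GC at the last base of their codons, the median was 0.30 for 70 genes with 5 or more linkers and 0.02 for 2266 with none. Among genes with a mean footprint level under 20 TPM, it was 0.28 for 74 and 0.01 for 4098. The inputs of the same 92 genes had medians of 0.23 for the PRMT1 inhibitor label and 0.12 for the PRMT4 inhibitor label. In the footprints of the PRMT1 inhibitor label, which share the DMSO footprint library, their median was 0.21.

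Base composition and length gave smaller differences over all genes. In 5 equal classes of GC at the last codon base, from low to high, the medians were 0.04, 0.01, 0.01, -0.01 and -0.05 (rho = -0.14 across 8053 genes). In 5 equal classes of coding length, from short to long, they were 0.04, 0.01, -0.01, -0.01 and -0.04 (rho = -0.12). The input ratios moved with GC far more, at rho = -0.41 for the PRMT1 inhibitor label and 0.29 for the PRMT4 inhibitor label.

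**Figure D4:**
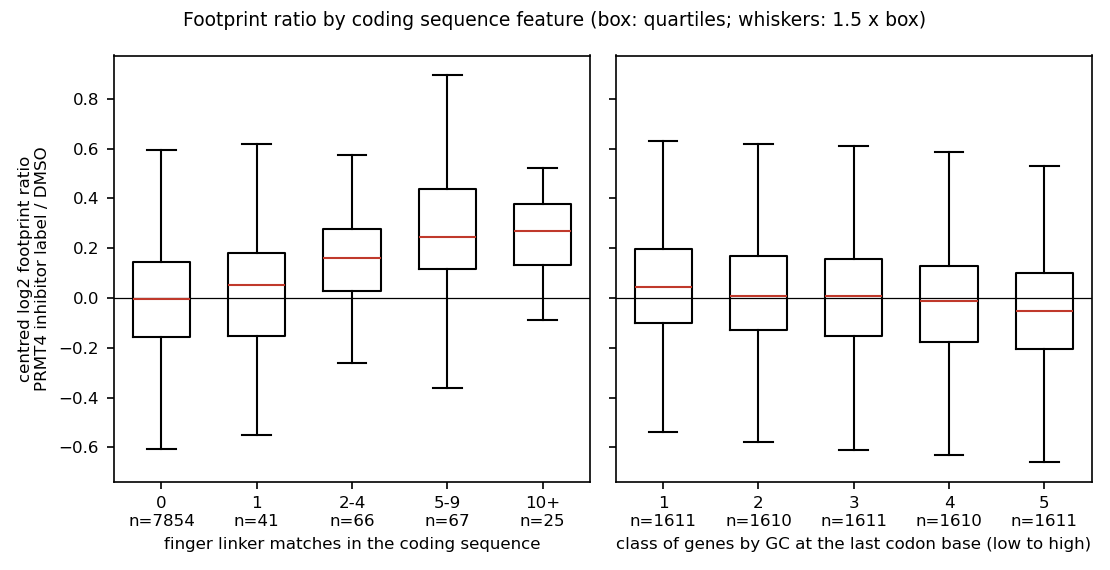
Boxes (median in red, quartiles, whiskers to 1.5 times the box) of the centred log2 footprint ratio by number of finger linker matches (left) and by class of GC at the last codon base (right), with the number of genes under each. The median goes from 0.00 with no linker to 0.27 with 10 or more, and from 0.04 to -0.05 across the GC classes.

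The translation machinery itself stood close to the typical gene. Small subunit ribosomal proteins had 25 of 33 above 0 and a median of 0.13, with RPS29 at 1907 and 2653 TPM (0.49) and RPS4X at 6406 and 8595 TPM (0.44). Large subunit proteins had 35 of 51 above 0 and a median of 0.06, from RPL7 at 154 and 219 TPM (0.52) to RPL6 at 1249 and 847 TPM (-0.55). None of the 84 was past 1.5-fold. Ribosomal protein messages carry a pyrimidine tract at their start that ties them to mTOR signalling. A RefSeq start site of C followed by 4 pyrimidines was present in 414 genes with a median of -0.04, against 0.00 for 6327 without. Among genes whose symbol begins with RPL or RPS and then a digit, 40 with such a start had a median of 0.09 and 31 without of 0.07. They were picked by symbol alone, so some may encode no ribosomal protein. Initiation factors had 29 of 44 below 0 (median -0.06) and elongation factors 10 of 13 (median -0.11), with none past 1.5-fold in either.

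The arginine methyltransferases and what they act on were the genes nearest to the treatment. CARM1 itself stood at 99.9 TPM with DMSO and 81.1 with the PRMT4 inhibitor label, a ratio of -0.28, and PRMT1 at 276 and 207 TPM, a ratio of -0.40. Since an inhibitor blocks the protein's activity, neither level checks a label. Of 16 methyltransferases and partners, 10 lay below 0, none was past 1.5-fold, and the median was -0.18. RIOK1 and BTG1, partners of PRMT5 and PRMT1, were highest at 0.36 each, and NDUFAF7 (-0.55) and JMJD6 (-0.42) lowest.

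CARM1 substrates had 18 of 23 below 0, with a median of -0.15. The 2 past 1.5-fold were PKM and ARID1A, a subunit of the SWI/SNF chromatin remodeller, at 8.23 and 5 TPM (-0.61). KMT2C, a histone methyltransferase, stood at 2.77 and 3.39 TPM (0.23), and the splicing factor SF3B4 at 87.3 and 95.6 TPM (0.14). The hnRNP proteins, which coat new transcripts, had 20 of 26 below 0 and a median of -0.15, with HNRNPL at 282 and 197 TPM (-0.50) and PTBP2 at 13.5 and 17.1 TPM (0.33). Proteins with glycine- and arginine-rich motifs had 25 of 38 below 0 and a median of -0.08.

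Folding and redox genes were divided. Cytosolic chaperones had 15 of 26 below 0 (median -0.07), with HSP90AB1 at 403 and 254 TPM (-0.65) beside HSPA1B, and DNAJB4 at 10.7 and 14.7 TPM (0.44). ER chaperones had 13 of 21 above 0 and a median of 0.13, with PDIA6 at 9.67 and 13.2 TPM (0.43), CANX at 22.7 and 30.1 TPM (0.41) and DNAJC10 at 4.69 and 3.20 TPM (-0.42). Targets of the antioxidant factor NRF2 had 13 of 21 above 0 and a median of 0.13. HMOX1, FTL and NQO1, a quinone reductase at 12.9 and 25.2 TPM (0.93), were at least 1.5-fold higher. TKT, at 59.3 and 40.8 TPM (-0.51), and PGD, at 320 and 249 TPM (-0.35), both of the pentose phosphate pathway, were lowest. Selenoproteins had 12 of 18 above 0 and a median of 0.14, led by GPX3 and by SELENOT at 4.40 and 6.03 TPM (0.39).

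**Figure D5:**
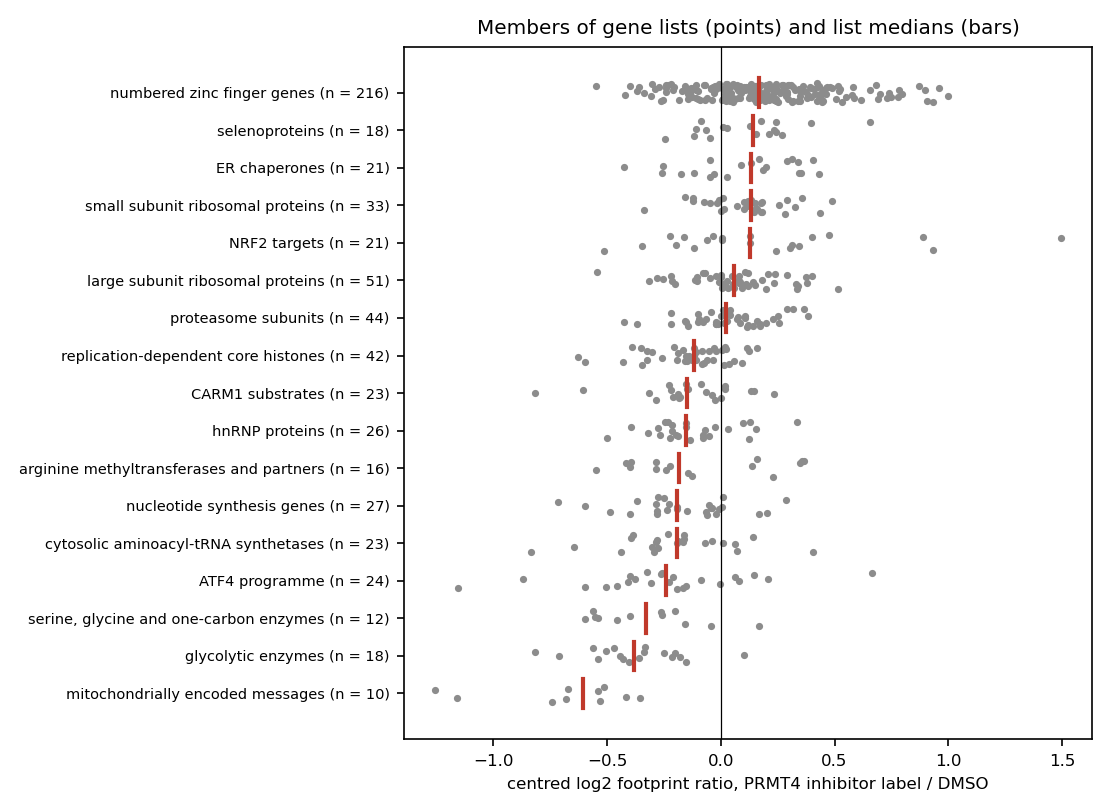
Each point is a measured member of a gene list, the red bar is the list median, and the horizontal axis is the centred log2 footprint ratio of the PRMT4 inhibitor label over DMSO, with lists in order of their medians. Of the 17 lists drawn, messages made in mitochondria lie lowest at the pseudocount of 1, with a median of -0.60 (-0.32 with a pseudocount of 5, against -0.35 for glycolytic enzymes), and numbered zinc finger genes highest, at 0.17.

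Over all gene lists with 5 or more members measured, 70 in number, 42 had a median within 0.1 of 0, 23 lay lower and 5 higher. Rescaling to nuclear protein-coding genes without centring moved the median protein-coding gene to 0.06, and small negative medians such as those of the CARM1 substrates and hnRNP proteins (-0.09 each) shrank with it. Lists near 0 included the proteasome (0.02, 44 genes), DNA replication (-0.04, 53), mitosis and kinetochore genes (-0.06, 47) and p53-induced genes (0.03, 25).

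RNAs that code for no protein spread more widely. Of 923 such genes, 53 (5.74%) stood 2-fold or more above DMSO and 14 (1.52%) as far below, and at 1.5-fold there were 172 (18.6%) and 52 (5.63%). Above 0 lay 63.3% of them. Small nucleolar RNAs, which guide the chemical modification of ribosomal RNA, supplied 34 of the 53. Of 169 measured, 132 lay above 0, with a median of 0.50, and the C/D box (85) and H/ACA box (65) kinds had medians of 0.51 and 0.43. Their fragments in a footprint library come from particles other than a translating ribosome, and the part that carry-over plays here was not tested. Long non-coding RNAs (254) had a median of 0.13 and pseudogenes (291) of 0.05.

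Single non-coding genes are hard to read. RPS27P8, a pseudogene of a ribosomal protein, stood at 6.82 TPM with DMSO and 241 with the PRMT4 inhibitor label, a ratio of 4.97. Together with RPS27, whose coding words are all shared, the sum was 1506 and 1740 TPM, a ratio of 0.22. The pseudogene ENSG00000237875 was listed at 0 with DMSO and at 83.7 TPM with the PRMT4 inhibitor label, RNA5-8SP6 had a ratio of 3.10 and SERBP1P5 of 1.80. Lowest were the mitochondrial valine tRNA MT-TV, at 306 and 93.3 TPM (-1.69), ENSG00000257645 (-1.26), ENSG00000262899 (-1.12) and SNX3P1X (-1.08).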

How the data were processed

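The authors deposited 1 table of TPM for the 6 libraries, per the file headers. Per the submitters' processing notes, the build was GRCh37.p13 and the tools were RSEM 1.2.22, STAR 2.4.2a, Bowtie 1.1.2 and cutadapt 1.18, with no roles. Of 60461 identifiers, 41 Y pseudoautosomal copies were dropped. Ratios used a pseudocount of 1 and a minimum mean of 5 TPM (Python 3.11.15, numpy 2.4.6, pandas 2.3.3, statsmodels 0.14.6), and the calculation was tested on simulated data. Coding sequences, gene types and linkers came from GENCODE 29, whose genome build differs from the authors', so no coordinates are given; planned protein features were replaced by the codon-level linker count. Named genes were the 15 highest and 15 lowest protein-coding genes with a mean footprint level of at least 20 TPM, up to 2 members each way per list described, 4 other genes each way, PRMT1 and CARM1; others were chosen after their values were seen. The comparison, members and lists were chosen with earlier results of these data known. Alternatives changed the pseudocount, filter, centring, scaling, level trend, GC and length adjustment. Some list members are not reported here.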

Additional observations from a re-analysis of the deposited data

Results flagged for a closer look

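For 3 gene lists with 5 or more members measured, the median footprint ratio lay on opposite sides of 0 under the inhibitor labels, at least 0.15 away in both. Further lists lay on opposite sides with a median nearer 0. Mitochondrial aminoacyl-tRNA synthetases, for instance, had -0.17 with the PRMT4 inhibitor label and 0.11 with the PRMT1 inhibitor label. The differences were not tested, since each label has 1 library and both share the DMSO footprint library. Mitochondrially encoded messages had a median of -0.6042 with the PRMT4 inhibitor label and 0.27 with the PRMT1 inhibitor label. The ATF4 programme had -0.2429 and 0.18. Amino acid transporters had -0.1857 and 0.31; with the PRMT4 inhibitor label this became -0.05 with no filter on level (19 genes) and -0.06 at a mean of at least 1 TPM (18 genes). The mitochondrial median was -0.32 with a pseudocount of 5.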

How the results depend on the processing

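Counts of genes past a fold moved with the processing, and the cause was not tested beyond the number of genes each setting compares. In order, the counts are protein-coding genes 2-fold higher, 2-fold lower, 1.5-fold higher and 1.5-fold lower (7, 9, 118 and 103 as reported), then other genes likewise (53, 14, 172 and 52). They are out of 8117 protein-coding and 923 other genes unless other numbers are given. Where those numbers differ, a higher count need not be a higher share. With a pseudocount of 0.1 the protein-coding counts were 20, 20, 182 and 160, and other genes lower numbered 34 and 83. With a pseudocount of 5 they were 2, 3, 27 and 39, then 26, 7, 99 and 30. With no filter (14922 protein-coding and 8384 other genes) they were 22, 18, 250 and 232, then 134, 77, 442 and 252. With a mean of at least 1 TPM (11385 and 2294 genes) they were 19, 16, 221 and 200, then 99, 47, 299 and 130. With at least 20 TPM (3606 and 388 genes) they were 2, 5, 19 and 38, then 22, 6, 81 and 20. Rescaling to nuclear protein-coding genes and leaving out the centring, 2 choices changed together, gave 14 and 189 protein-coding genes higher. Adjusting for GC and length gave 31 of 841 other genes 2-fold higher, and 100 and 80 past 1.5-fold. With the 6137 protein-coding genes of under 10% shared words alone, chosen after seeing the data, 2 were 2-fold higher, 1 lower and 74 at least 1.5-fold higher. The higher share of protein-coding genes past 1.5-fold, 53.4% as reported, was 40.9% with a pseudocount of 5 and 33.3% at 20 TPM or more. Over all genes it was 65.2%, against 76.2% after that rescaling without centring and 54.4% after GC and length adjustment. All 52 named genes tracked kept their sign in every alternative. Apart from PRMT1 and CARM1 they were picked for extreme ratios, so a kept sign says little about how firm they are. Of the other values recomputed, list medians and gene ratios, 1308 stayed within 0.1 of the reported value and 77 moved further. Among list medians at least 0.1 from 0, that of tubulins changed side, -0.14 as reported and 0.08305 over the 3 members with under 10% shared words. No paired analysis was possible because each group has 1 library. Leaving out a library leaves no comparison. Depth is unknown, so counting error could not be given.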

Other observations

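Some further lists have not been described above. Tubulins had 8 of 13 below 0 and a median of -0.14 (0.08 over the 3 with under 10% shared words), and actin and actin-binding proteins 28 of 41 below 0 and a median of -0.06. Cohesin and its regulators, which hold sister chromatids together, had 11 of 14 above 0 with a median of 0.08. Subunits of the ER translocon, signal peptidase and oligosaccharyltransferase had 20 of 32 above 0 with a median of 0.09, and nuclear pore and transport genes 29 of 42 below 0 with a median of -0.12.

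POLG, the mitochondrial DNA polymerase, stood at 10.6 TPM with DMSO, 8.37 with the PRMT1 inhibitor label and 3.98 with the PRMT4 inhibitor label in footprints. Its ratio for the PRMT4 inhibitor label was -1.20, with 0.65% of its words in another gene, while its input stood at 45, 36.0 and 44.3 TPM in the same order.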
